A study of Danio rerio with 6 samples.

Results

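The genes that flank sirt6 on zebrafish chromosome 2 were examined for differences between sirt6 mutant and wild-type (WT) larvae. They are the 246 gene models, of 38157 in the deposited table, that start between positions 48065039 and 58201840 of chromosome 2 (GRCz11), which is within 5 Mb of either end of sirt6. They were chosen by position alone, and sirt6 is one of them. The rest of chromosome 2 holds 1473 models and served as the comparison. The study measured poly-A selected RNA from tails, with their blood-forming tissue, of larvae at 3 days post fertilisation. There were 3 libraries of sirt6 mutants, from a line made with CRISPR/Cas9, and 3 libraries of WT larvae of the same age and tissue, and larvae were told apart by genotyping. The sources used here do not give the lesion, the number of founders, the zygosity or the parents of each pool. Values are FPKM, fragments scaled by transcript length and by a factor for each library, so levels can be compared between genes per length.

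SIRT6 is a nuclear enzyme that uses NAD to remove acyl groups, acetyl groups of histones among them, and is known for roles in DNA repair and metabolism. Genes that lie close together on a chromosome are usually inherited together, as a haplotype. A mutation made on one chromosome therefore travels with the versions of its neighbours that this chromosome carried, and mutants and WT fish of a line can differ at the neighbours as well as at the edited gene. An expression table can show whether neighbours differ in level, and it does not show which sequence version each library carried.

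The reads in genes ranged from 12788974 to 14314865 in mutant libraries and from 12438359 to 14655293 in WT libraries. WT libraries 2 and 3 lay close together over the flanking genes, with a median absolute difference of 0.128 on the log2(FPKM + 0.5) scale, and so did mutant libraries 1 and 3, with 0.154. The other 13 pairs of libraries differed by 0.340 to 0.457. WT library 1 or mutant library 2 was the highest or lowest of the 6 for 128 of the 160 flanking genes tested (80.0%), against 73.1% of all genes tested. Muscle markers other than mylpfa were abundant, with summed levels of 3336 to 4211 FPKM in mutants and 2933 to 4285 FPKM in WT. Over the libraries mylpfa had 0 to 0.140 FPKM and the skin marker epcam 0 to 0.0458 FPKM. Markers of the retina and lens, liver and pancreas, brain and heart were present too, although the labels give the tissue as tail, and the markers col8a1a (notochord) and alas2 (erythroid) were listed at 0 in every library. Counts that change without these 2 libraries are given both ways.

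Of the 246 models, 183 were protein coding, 31 had no annotation, 12 were ribosomal RNA genes and 11 were processed transcripts. In all, 42 models were listed at 0 in every library, and 160 (65.0%) reached the mean of 0.5 FPKM over the 6 libraries that was set for testing. Genes of some immune-type families were mostly listed at 0. A run of 8 models with a C-type lectin domain, a fold of sugar-binding and immune receptors, lay 4.52 to 4.66 Mb before sirt6. None of the 8 reached the level for testing, 6 were listed at 0 in every library, and no value was above 0.106 FPKM. Of 25 models with an immunoglobulin V-set domain, 13 were listed at 0 in every library and 3 were tested, among them pigr, the receptor that carries polymeric immunoglobulin across epithelia, and nectin4b, a cell adhesion molecule. Of the 12 ribosomal RNA models, 10 were listed at 0 in every library, and poly-A selection removes most ribosomal RNA. A value of 0 need not mean that a gene was not transcribed, since the sources used here do not say how reads of near-identical copies were counted.

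sirt6 itself (ENSDARG00000102963, minus strand, 53065039 to 53201840) had 3.52, 3.39 and 3.04 FPKM in mutant libraries 1, 2 and 3, against 5.85, 3.25 and 2.44 FPKM in WT libraries 1, 2 and 3. The mutant values lay inside the WT range. The log2 fold change, mutant over WT, was -0.11 (SE 0.275, unadjusted p = 0.691 in limma). For the difference of mean FPKM, an exact permutation test (two-sided) gave p = 0.9. With 3 against 3 libraries that test cannot go below 0.1. Without WT library 1 the log2 fold change was 0.197. The gene was read 72 to 75 times per mutant library and 50 to 131 times per WT library and its SD was 0.251 FPKM in mutants and 1.78 FPKM in WT. The table places another gene model inside the span of sirt6, and reads of the pair cannot be told apart without a stated strand setting. In these bulk samples, fewer cells of a type and less RNA per cell cannot be told apart, here and in what follows.

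With all 6 libraries, none of the annotated genes nearest to sirt6 separated the genotypes. Before the gene lie creb3l3b, a transcription factor held at the endoplasmic reticulum, and LO018490.1, which the table describes as a Rab GTPase. Next come gna11b, a G protein alpha subunit, chico, described there as an amino-terminal enhancer of split, tle2c, a Groucho-type corepressor, and plpp2a, a lipid phosphatase. After it lie celf5b, an RNA-binding protein, hsd11b1lb, a steroid dehydrogenase-like gene, the chemokine ccl25a, ranbp3b and ctnnbl1, which take part in nuclear export and splicing, capsla, FO834855.1, described as neurturin, and abhd8a. With 5 unannotated models these are 19 of the 20 tested genes nearest to sirt6, 10 of the 20 on each side. One of the 5, which starts 753 kb before sirt6, had 1.99, 2.94 and 1.44 FPKM in mutants and 3.01, 5.05 and 4.58 FPKM in WT, and was the only one of the 20 whose genotypes did not overlap (log2 fold change -0.86, SE 0.266, adjusted p = 0.775 in limma). Over all genes tested, 10.6% did not overlap between genotypes, so a low count among 20 genes does not mark them out. In limma without WT library 1 and mutant library 2, LO018490.1, gna11b, tle2c, plpp2a, celf5b, ccl25a, ctnnbl1 and capsla passed. Of all genes, 18.6% passed there. ccl25a was lower in mutants and the others were higher. creb3l3b, chico, hsd11b1lb, ranbp3b, FO834855.1 and abhd8a did not pass there. The 4 libraries left are the 2 closest pairs in these data, so the spread within a genotype is small by that choice.

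**Figure D1:**
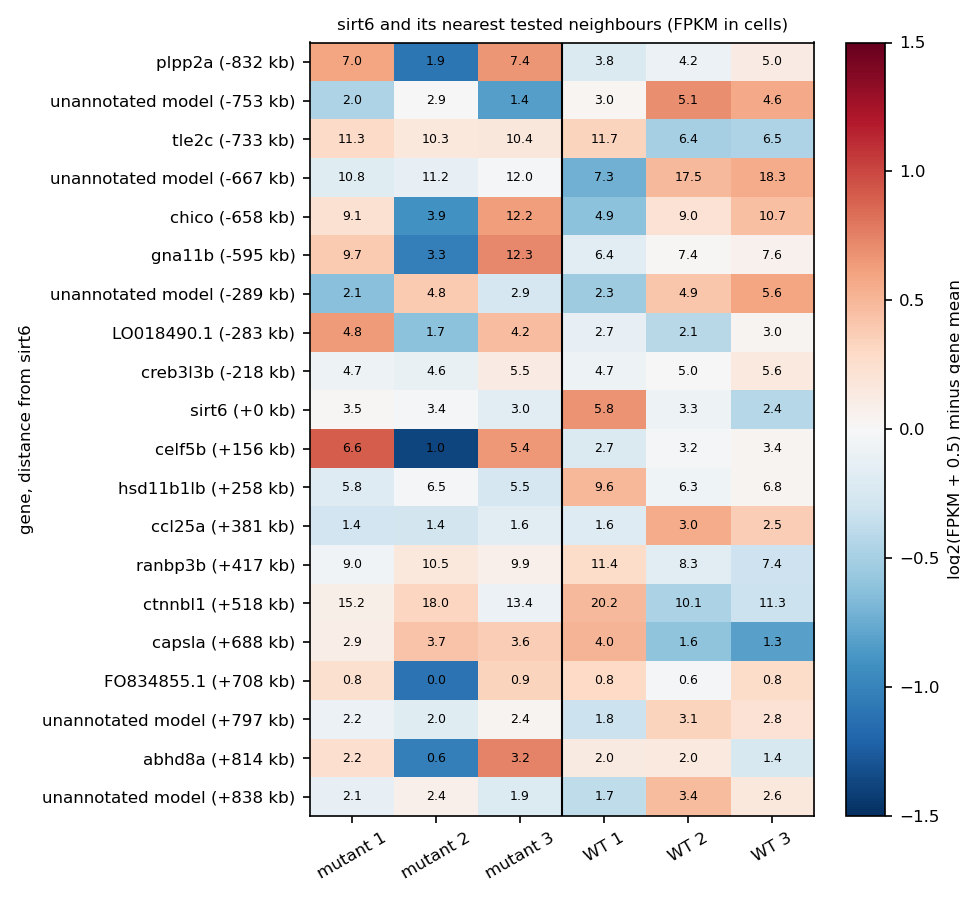
Level of sirt6 and 19 of the 20 nearest tested genes in each library. Each row is a gene, with its distance from sirt6 in kb and genes before sirt6 above it; cells print FPKM, and colour gives log2(FPKM + 0.5) minus the gene's mean. Mutant library 2 is the lowest for celf5b, gna11b, chico, plpp2a and abhd8a, and WT library 1 for the unannotated model 667 kb before sirt6.

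The closest tested gene on each side is given first, and then nearby genes in which a single library stood out. creb3l3b, 218 kb before sirt6, had 4.71, 4.56 and 5.46 FPKM in mutants and 4.71, 4.96 and 5.57 FPKM in WT, with a log2 fold change of -0.05 (SE 0.150). Its 6 values span little and the genotypes overlap. celf5b, 156 kb after sirt6, had 6.59, 0.952 and 5.42 FPKM in mutants and 2.72, 3.23 and 3.36 FPKM in WT, and its log2 fold change was 0.13 (SE 0.536). Mutant library 2 was low there, while the other mutant libraries lay above all WT libraries. The same library was the lowest for gna11b, with 9.73, 3.33 and 12.3 FPKM in mutants and 6.42, 7.36 and 7.62 FPKM in WT. For ctnnbl1 the library that stood out was WT 1, with 20.2 FPKM, against 10.1 and 11.3 FPKM in the other WT libraries and 15.2, 18.0 and 13.4 FPKM in mutants.

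Across the whole window no gene passed the test. limma, applied to log2(FPKM + 0.5) of all 23855 genes above the filter with Benjamini-Hochberg adjustment, gave a smallest adjusted p of 0.670 among the flanking genes, and it called 0% of all genes. At an unadjusted p under 0.05 there were 13 flanking genes of 160 (3 higher and 10 lower in mutants), or 8.12%. The share was 6.93% in the rest of chromosome 2 (61 of 880) and 5.73% over all genes tested, where 2.45% were higher and 3.28% lower. Genes for which all 3 mutant values lay above, or all below, the 3 WT values numbered 17 of 160, or 10.6%. That equals the 10.6% of all genes tested and lies near the 10.5% of the rest of chromosome 2 (92 of 880). Of the 17, 5 were higher and 12 lower in mutants, against 5.16% and 5.4% of all genes. Without WT library 1, 73 of 160 did not overlap, against 38.9% of all genes. At an unadjusted p under 0.05 there were then 43 (26.9%), against 19.4% in the rest of chromosome 2 and 18.5% of all genes. Without mutant library 2 the counts were 57 and 32, against 33.8% and 13.4% of all genes. The median log2 fold change of the flanking genes was 0.000128, with 80 positive and 80 negative, and the median absolute log2 fold change was 0.216, against 0.155 in the rest of chromosome 2 and 0.162 over all genes.

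By distance from sirt6, the share of genes whose genotypes do not overlap was lowest in the nearest class and highest in the farthest. Within 1 Mb, 1 of 27 tested genes did not overlap between genotypes (3.70%), and this was an unannotated model. From 1 to 2.5 Mb the count was 3 of 45 (6.67%), and from 2.5 to 5 Mb it was 13 of 88 (14.8%), where 10.6% of all genes did not overlap. At an unadjusted p under 0.05 the counts were 1 (3.70%), 1 (2.22%) and 11 (12.5%) over the same 3 classes, against 5.73% of all genes. The median absolute log2 fold change was 0.191, 0.169 and 0.247 from the nearest class to the farthest. These are counts in position classes of one chromosome, given with all 6 libraries only. The difference between classes was not tested.

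**Figure D2:**
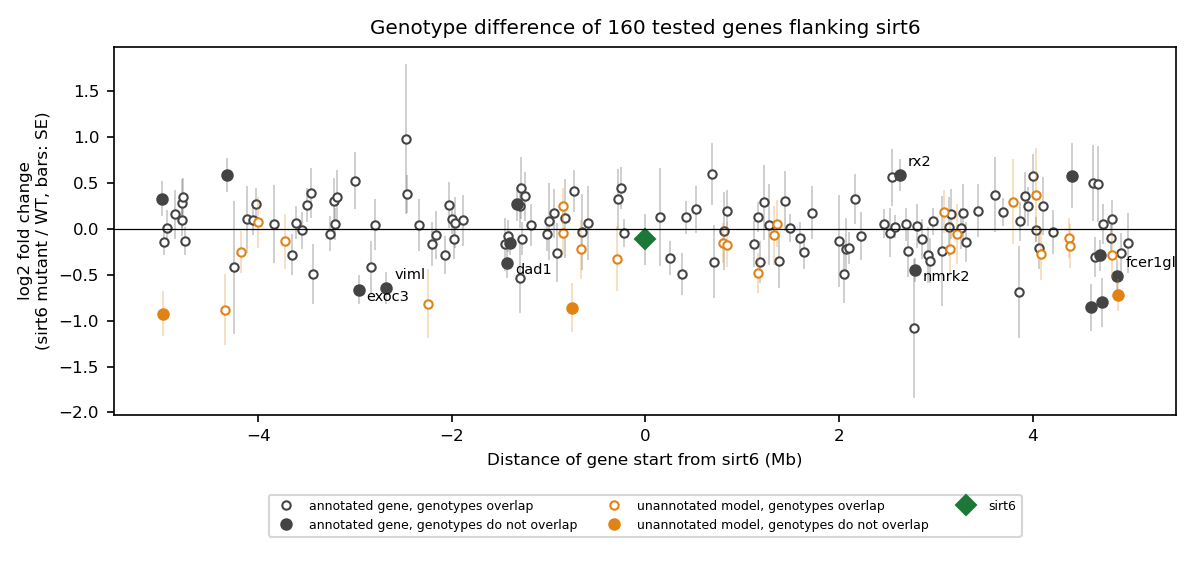
Genotype difference of the 160 tested flanking genes by the distance of their start from sirt6 (Mb); the y axis is the log2 fold change, mutant over WT, with its SE, filled points are genes whose genotypes do not overlap, and orange marks unannotated models. Differences scatter around 0 on both sides, and 13 of the 17 filled points lie 2.5 to 5 Mb from sirt6.

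In steps of 5 Mb along chromosome 2, the share of genes that did not overlap ran from 2.08% to 15.5%. The highest share, with 14.3% of genes at an unadjusted p under 0.05, was in the step from 40 to 45 Mb, outside the flanking window. The steps that hold the flanking genes had shares of 13.2% (45 to 50 Mb), 8.57% (50 to 55 Mb, where sirt6 lies) and 11.8% (55 to 60 Mb). Few genes had an unadjusted p under 0.001 in limma. There were 0 of 160 flanking genes, 50 of all 23855 genes tested and 5 of 880 in the rest of chromosome 2. One of these 5 was the first tested gene beyond the window, si:ch211-77g15.32, with 3.62, 3.09 and 2.55 FPKM in mutants and 0.251, 1.01 and 0.549 FPKM in WT (log2 fold change 1.75, SE 0.285, adjusted p = 0.278 in limma). Just inside that edge, klf6b, a zinc finger transcription factor, had 1.11, 1.13 and 1.17 FPKM in mutants and 0.828, 0.839 and 0.756 FPKM in WT (log2 fold change 0.33, SE 0.192). At the other edge, pnp5b, a purine nucleoside phosphorylase, lay inside with a log2 fold change of -0.15, and KCNJ10, a potassium channel, lay outside with 0.18.

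**Figure D3:**
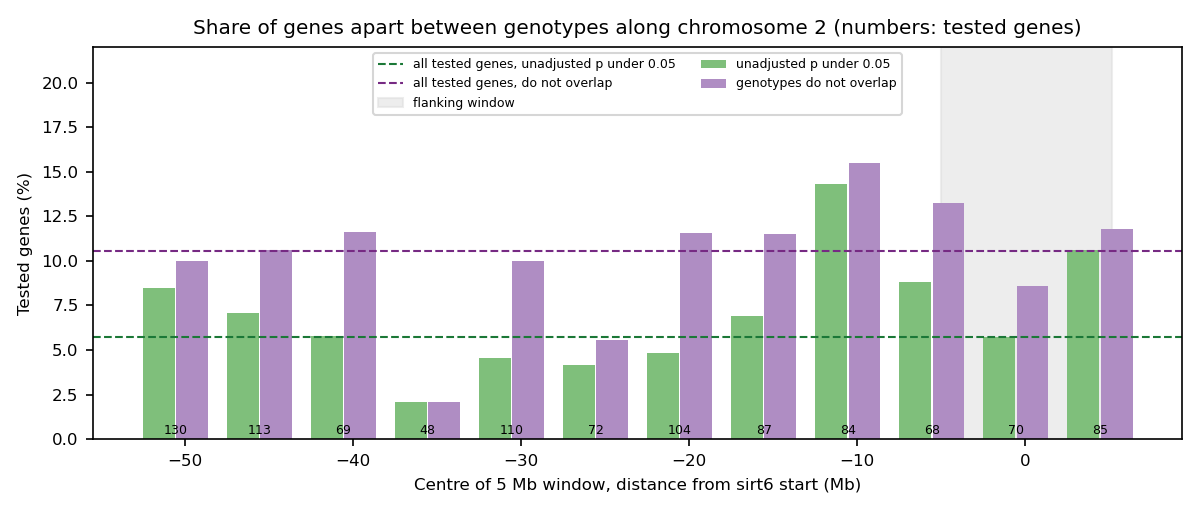
Share of tested genes along chromosome 2 in steps of 5 Mb, placed by the distance of the step's centre from sirt6; green bars give genes at an unadjusted p under 0.05 and purple bars genes whose genotypes do not overlap. Dashed lines mark the shares over all tested genes (5.73% and 10.6%), the grey band is the flanking window, and the tallest bars stand about 10 Mb before sirt6.

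Among the 12 genes lower in every mutant library than in any WT library, the smallest p belonged to exoc3 (ENSDARG00000014582, minus strand, 50104811 to 50126337), a subunit of the exocyst, the complex that tethers secretory vesicles to the plasma membrane. Its level was 1.89, 2.10 and 2.16 FPKM in mutants, against 3.33, 3.43 and 3.86 FPKM in WT. The groups lay well apart, and neither mutant library 2 nor WT library 1 broke the pattern. The log2 fold change was -0.66 (SE 0.159, unadjusted p = 0.00319, adjusted p = 0.670 in limma). viml, described as a vimentin, a protein of intermediate filaments, had 1.45, 1.86 and 1.67 FPKM in mutants and 3.28, 2.71 and 2.64 FPKM in WT. Its log2 fold change was -0.64 (SE 0.177, adjusted p = 0.748 in limma), and it starts 2.67 Mb before sirt6, where exoc3 starts 2.96 Mb before it.

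nmrk2, a nicotinamide riboside kinase that feeds the synthesis of NAD, the cosubstrate of sirtuins, had 24.7, 29.0 and 24.4 FPKM in mutants and 37.4, 35.9 and 33.8 FPKM in WT. The log2 fold change was -0.45 (SE 0.129, unadjusted p = 0.00835, adjusted p = 0.775 in limma), and the highest mutant library stayed below the lowest WT library. The table places the short model CU013534.2 across it, and without a stated strand setting reads of the pair cannot be told apart. That model was read 0, 0 and 7 times in mutants and 2, 4 and 3 times in WT, while nmrk2 was read 870 to 1045 times in mutants and 1142 to 1383 times in WT.

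dad1, a subunit of the enzyme that attaches N-linked sugars to proteins, had 63.5, 77.9 and 57.6 FPKM in mutants and 96.6, 79.7 and 81.3 FPKM in WT. Its genotypes came close to each other, and the log2 fold change was -0.38 (SE 0.159, adjusted p = 0.867 in limma). fcer1gl, a relative of the signalling chain of Fc receptors in immune cells, had 7.21, 7.81 and 5.77 FPKM in mutants and 11.6, 7.92 and 11 FPKM in WT. Here too the highest mutant value lay just under the lowest WT value, and the log2 fold change was -0.51 (SE 0.190, adjusted p = 0.838 in limma). Beside it, the summed level of 3 neutrophil markers found was 44.9 to 48.5 FPKM in mutants and 24.7 to 26.9 FPKM in WT. Of these, mpx and npsn were higher in every mutant library. lyz, under the level for testing, had 0.249, 0.365 and 0.224 FPKM in mutants and 0.830, 0.960 and 0 FPKM in WT. The summed level of 3 macrophage markers was 4.76 to 8.17 FPKM in mutants and 6.74 to 7.23 FPKM in WT. Of these, csf1ra (log2 fold change -0.08) and marco (0.12) overlapped between genotypes. mpeg1.1, under the level for testing, had 0.111 to 0.228 FPKM in mutants and 0.302 to 0.543 FPKM in WT. The part of these cells in the fcer1gl values was not tested.

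**Figure D4:**
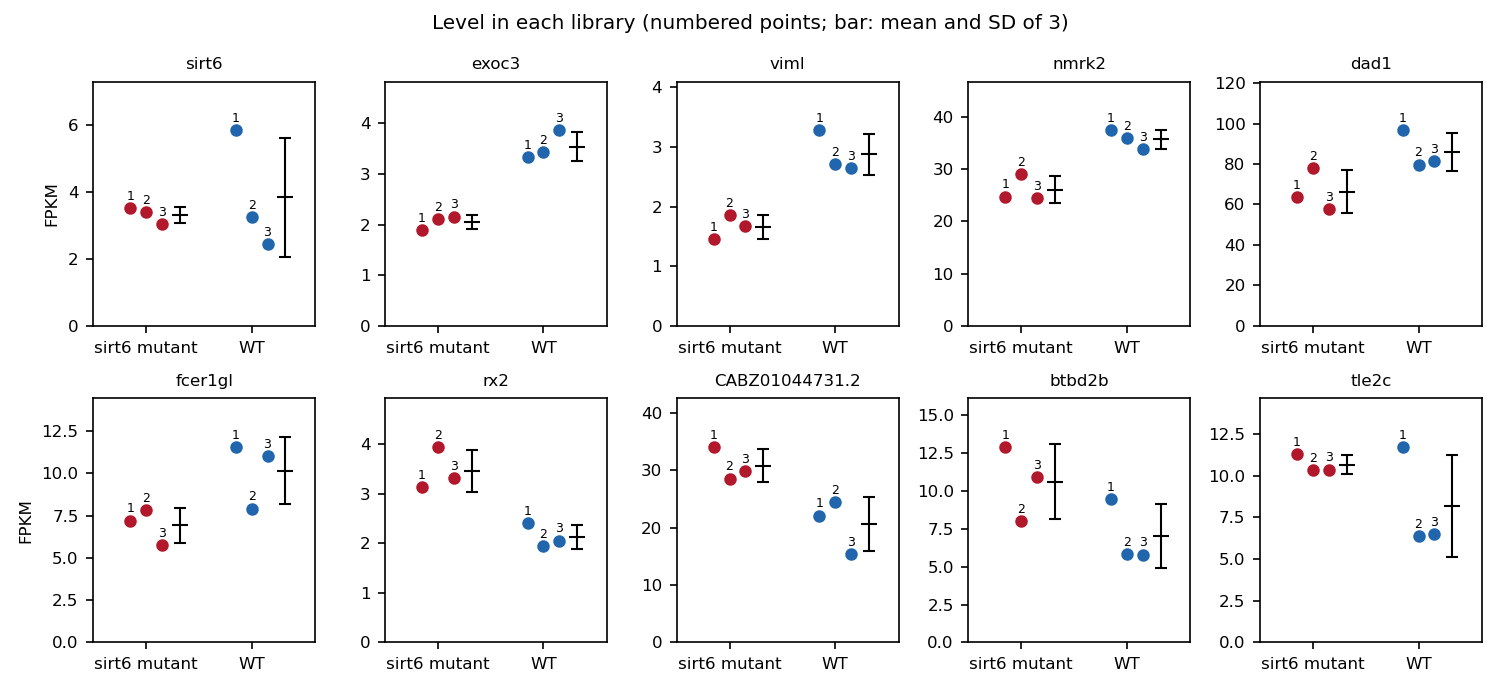
FPKM of sirt6 and 9 flanking genes in each library, with mutants left of WT, libraries numbered 1 to 3, and the mean and SD of 3 beside them. exoc3, viml, nmrk2, dad1 and fcer1gl are lower and rx2 and CABZ01044731.2 higher in all mutant libraries than in any WT library, while sirt6, btbd2b and tle2c overlap.

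Of the genes 4.6 to 4.71 Mb after sirt6, those named si:dkeyp-68b7.10 and si:dkeyp-68b7.7 were lower in mutants and others between them were not. sf3a2, plekhj1 and TPGS1 in the same stretch overlapped between genotypes, with log2 fold changes of 0.50, -0.30 and 0.49. si:dkeyp-68b7.10, which has a junctional sarcoplasmic reticulum protein domain, had 1.82, 0.741 and 1.5 FPKM in mutants and 2.60, 2.70 and 2.92 FPKM in WT (log2 fold change -0.85, SE 0.254, adjusted p = 0.775 in limma). Of 2 overlapping models that share the symbol si:dkeyp-68b7.7, one had a log2 fold change of -0.80 and the other of -0.29, and reads of these models cannot be told apart. The next gene on, si:dkeyp-68b7.5, overlapped between genotypes with a log2 fold change of 0.06. Also among the 12 was tgm1l1, a transglutaminase, which differed little, with a log2 fold change of -0.15 (SE 0.131).

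Unannotated models leaned to lower values in mutants. Of 26 tested in the window, 20 had a negative log2 fold change, with a median of -0.18, against 33 of 57 and a median of -0.10 in the rest of chromosome 2 and a median of -0.06 over all unannotated models. By library the median deviation from the gene mean was -0.12, -0.01 and -0.15 in mutants and -0.33, 0.34 and 0.35 in WT, so WT library 1 was the lowest of all and the other WT libraries the highest. Of such models, the one of smallest p starts 4.89 Mb after sirt6 and had 11.7, 15.7 and 10.1 FPKM in mutants and 19.1, 21.1 and 21.6 FPKM in WT (log2 fold change -0.72, SE 0.177, adjusted p = 0.683 in limma). Another, 4.98 Mb before sirt6, had 0.499, 0.779 and 0.777 FPKM in mutants and 1.20, 2.14 and 1.97 FPKM in WT. The files pair neither with a gene name, and the log2 fold change of the second was -0.92 (SE 0.246).

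Of the genes higher in mutants, rx2 (minus strand, 55833425 to 55861351), a retinal homeobox transcription factor, had the smallest p. It had 3.13, 3.94 and 3.31 FPKM in mutants and 2.40, 1.94 and 2.05 FPKM in WT. The genotypes did not overlap, and the log2 fold change was 0.59 (SE 0.171, unadjusted p = 0.0088, adjusted p = 0.775 in limma). The summed level of 7 retina and lens markers, which lie outside the tail, was 1133 to 1409 FPKM in mutants and 650 to 1033 FPKM in WT. Most of the sum was rho, with 859, 910 and 778 FPKM in mutants and 568, 320 and 285 FPKM in WT. rho, saga and gnat1 were higher in every mutant library. gnat2, crygm2d1, cryaa and cryba1l1 overlapped between genotypes, with log2 fold changes of -0.12, -0.18, -0.18 and 0.15. The part of retina and lens in the rx2 values was not tested. Another flanking gene of the eye, the lens crystallin crygn1, averaged 0.902 FPKM in mutants and 0.564 FPKM in WT and overlapped between genotypes.

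CABZ01044731.2, described as a supervillin, an actin-binding protein, had 34.1, 28.6 and 29.8 FPKM in mutants and 22.1, 24.4 and 15.4 FPKM in WT, with a log2 fold change of 0.59 (SE 0.188, adjusted p = 0.775 in limma). Its neighbour svilb carries the same description, and the sources used here do not say how reads shared by both were counted. svilb had 6.99, 0.682 and 9.79 FPKM in mutants and 5.98, 3.90 and 7.13 FPKM in WT, and mutant library 2 was the lowest. btbd2b, a BTB domain gene, had 12.9, 8.0 and 10.9 FPKM in mutants and 9.45, 5.81 and 5.79 FPKM in WT (log2 fold change 0.57, SE 0.241, unadjusted p = 0.0449 in limma). Its genotypes overlapped through WT library 1. tle2c, 733 kb before sirt6, overlapped between genotypes as well, since WT library 1 was the highest of all, with 11.3, 10.3 and 10.4 FPKM in mutants and 11.7, 6.37 and 6.50 FPKM in WT. capsla, a calcyphosin-like calcium-binding gene 688 kb after sirt6, had 2.89, 3.74 and 3.58 FPKM in mutants and 4.01, 1.58 and 1.30 FPKM in WT.

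The region around exoc3 is held more than once in the table. Alternate contigs carry other versions of some stretches of the genome, and 21 unannotated models of contigs assigned to chromosome 2 start at positions inside the flanking window. They are not among the 246, and they were examined after the values of exoc3 had been seen. Of 18 tested, 4 did not overlap between genotypes (22.2%), 3 of them higher in mutants, against 18.6% of the tested models of all contigs assigned to chromosome 2 (18 of 97, 15 of them higher in mutants), 14.0% of those of all alternate contigs and 10.6% of all genes. Positions of these models were read on the numbering that the table gives them.

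One model of contig CHR_ALT_CTG2_2_2 lies on the minus strand at 50106811 to 50138517, across the position of exoc3, and ran opposite to it. The model also overlaps the position of ahrrb, and the part of ahrrb in its reads was not tested. The contig model had 7.31, 8.0 and 7.57 FPKM in mutants, against 3.43, 3.88 and 4.46 FPKM in WT. Its log2 fold change was 0.88 (SE 0.150, unadjusted p = 0.000379, adjusted p = 0.323 in limma). A model of the contig CHR_ALT_CTG2_1_12 at the same place went the way of exoc3, with 2.10, 2.13 and 1.49 FPKM in mutants and 2.25, 3.06 and 2.83 FPKM in WT. Its transcript length of 3618 bases is near the 3628 bases of exoc3, and that of the CHR_ALT_CTG2_2_2 model is 3229 bases. The file gives neither model a gene name.

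Reads recovered from the FPKM values were compared for these 3 models. In mutants exoc3 was read 91, 104 and 116 times, the CHR_ALT_CTG2_1_12 model 101, 105 and 80 times and the CHR_ALT_CTG2_2_2 model 314, 352 and 362 times. In WT exoc3 was read 169, 172 and 179 times, the CHR_ALT_CTG2_1_12 model 114, 153 and 131 times and the CHR_ALT_CTG2_2_2 model 155, 173 and 184 times. The CHR_ALT_CTG2_2_2 model thus took 62.1%, 62.7% and 64.9% of the summed reads in mutants and 35.4%, 34.7% and 37.2% in WT, with group values of 63.2 ± 1.47% in mutants and 35.8 ± 1.30% in WT (SD, n = 3 each). The shares did not overlap, and the spread within a genotype was small beside the difference of 27.4 percentage points. An exact permutation test (two-sided) gave p = 0.1, its smallest value at this size. All 3 models had already been seen to separate the genotypes in these directions, so that outcome was fixed and adds no support. The summed reads were 506, 561 and 558 in mutants and 438, 498 and 494 in WT, which do not overlap. These sums were not scaled to the reads in genes of each library, which differ between libraries. A further CHR_ALT_CTG2_1_12 model, on the plus strand, also overlaps exoc3. It was read 20, 18 and 23 times in mutants and 13, 42 and 21 times in WT. With it the sums were 526, 579 and 581 in mutants and 451, 540 and 515 in WT, which overlap. The sources used here do not say how reads that match several versions were counted, and whether the mutants and WT carried different versions was not tested.

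**Figure D5:**
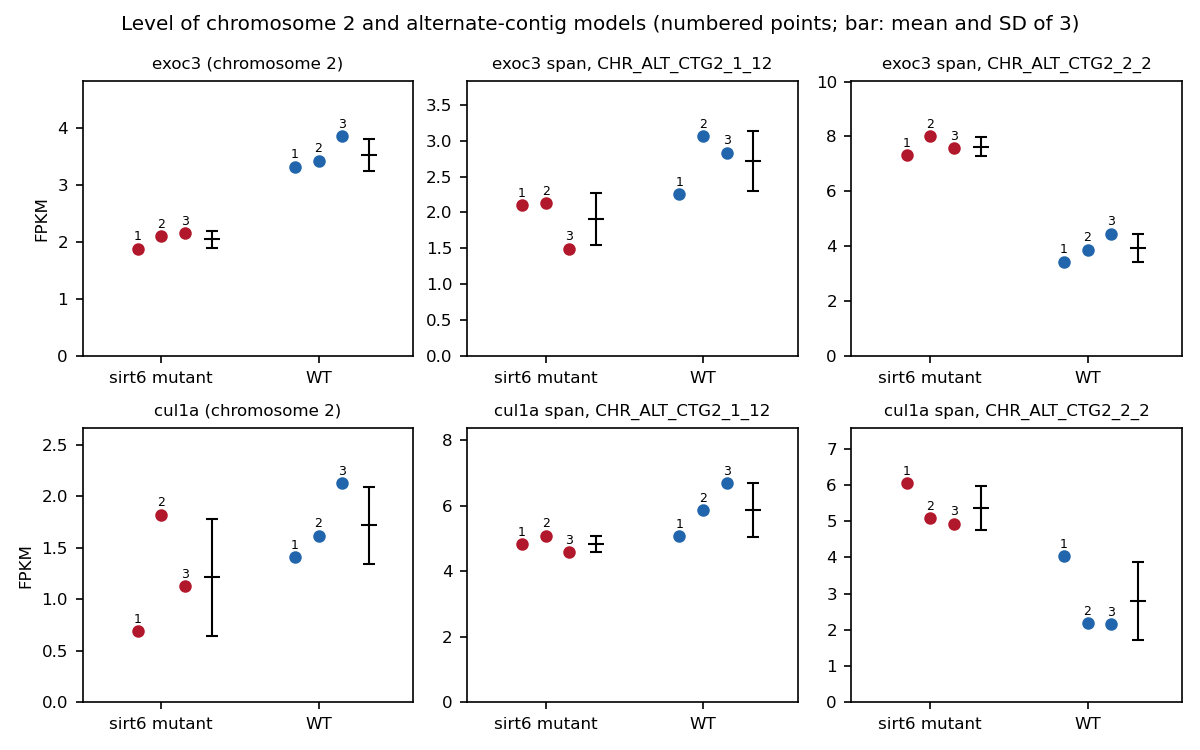
FPKM of exoc3 (top) and cul1a (bottom) and of the models of contigs CHR_ALT_CTG2_1_12 and CHR_ALT_CTG2_2_2 at the same positions, with mutants left of WT, libraries numbered, and the mean and SD of 3. At the exoc3 position the chromosome 2 and CHR_ALT_CTG2_1_12 models are lower and the CHR_ALT_CTG2_2_2 model higher in all mutant libraries than in any WT library.

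The neighbour cul1a, a cullin that scaffolds ubiquitin ligases, showed the same direction with more spread. cul1a itself was read 34, 92 and 62 times in mutants and 73, 83 and 101 times in WT, and the genotypes overlapped (log2 fold change -0.41, unadjusted p = 0.179 in limma). The CHR_ALT_CTG2_2_2 model at its position was read 265, 228 and 240 times in mutants and 186, 99 and 91 times in WT. That model had 5.36 ± 0.611 FPKM in mutants and 2.79 ± 1.08 FPKM in WT (SD, n = 3 each), with a log2 fold change of 0.87 (adjusted p = 0.746 in limma). Its share of the reads of 3 models was 46.3 ± 5.19% in mutants and 26.2 ± 9.98% in WT (SD, n = 3 each), and WT library 1, with 37.7%, came closest to the mutants. The CHR_ALT_CTG2_1_12 model counted there also overlaps the position of mcm6l, and the part of mcm6l in its reads was not tested. Further models of that contig at cul1a, read 1 to 4 and 5 to 26 times per library, were left out of the share. A model of the same contig at the position of zcchc2, a zinc finger gene, was also higher in mutants, with 1.32, 1.6 and 1.77 FPKM against 1.15, 0.940 and 0.773 FPKM in WT. Other models of the contig did not separate the genotypes, among them another at zcchc2, with a log2 fold change of -0.23, and one at hecw1b, with -1.22 (unadjusted p = 0.0320 in limma). Over the 9 models of CHR_ALT_CTG2_2_2 the reads summed to 796, 743 and 917 in mutants and 515, 503 and 483 in WT. Without the models at exoc3 and cul1a the sums were 217, 163 and 315 in mutants and 174, 231 and 208 in WT, which overlap. Of 17 pairs of a flanking gene and an overlapping contig model, 7 had opposite signs, and exoc3 with its CHR_ALT_CTG2_2_2 model was the one pair whose models both separated the genotypes in opposite directions.

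Of the 6 most abundant flanking genes, dad1 was the only one whose genotypes did not overlap, as 10.6% of all genes did not. eef2b, the elongation factor that moves the ribosome along mRNA, had 1645, 1723 and 1528 FPKM in mutants and 1675, 1264 and 1222 FPKM in WT, with a log2 fold change of 0.25 (SE 0.213). WT library 1 and mutant library 2 were the highest for ndufv2, a subunit of respiratory complex I, with 89.3, 115 and 86.1 FPKM in mutants and 137, 58.5 and 58.1 FPKM in WT. For gpx4b, which removes lipid peroxides, and si:ch1073-325m22.2, described as a subunit of the cytochrome b-c1 complex, the log2 fold changes were 0.20 and -0.20.

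Genes that also neighbour SIRT6 in human were looked at as a list of 153 genes from the part of human chromosome 19 around it. Matches by symbol were found for 124 of them in the table, and for 28 inside the flanking window, of which 25 were tested. None passed, 16 were higher and 9 lower in mutants, and the median log2 fold change was 0.08, with a range of -0.45 for nmrk2 to 0.57 for btbd2b. These 2 were the ones at an unadjusted p under 0.05, a level that 5.73% of all genes reached, and nmrk2 was the only one of the 25 whose genotypes did not overlap, as 10.6% of all genes did not. Next in order of p among those named were tle2c, cactin, plekhj1 and sf3a2, a splicing factor, with log2 fold changes of 0.41, 0.39, -0.30 and 0.50. sf3a2 had 24.7, 30.2 and 21.0 FPKM in mutants and 37.6, 12.2 and 11.6 FPKM in WT, so that WT library 1 alone lay above the mutants.

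Without WT library 1 and mutant library 2, 47 of the 160 flanking genes passed the test (28 higher and 19 lower in mutants), or 29.4%, against 18.6% of all genes (9.15% higher and 9.42% lower) and 20.3% of the tested genes in the rest of chromosome 2. At an unadjusted p under 0.05 there were 77 (48.1%), against 36.9% in the rest of chromosome 2 and 35.6% of all genes. Of the 160, 120 did not overlap, against 64.2% of all genes. The 4 libraries left are the 2 pairs that lie closest in these same data, so the spread within a genotype is small by that choice. Genotype and pair cannot be told apart, and the difference between these shares was not tested. exoc3, viml, nmrk2, rx2, btbd2b, tle2c and the CHR_ALT_CTG2_2_2 models at exoc3 and cul1a passed there. The log2 fold change there was -0.717 for exoc3 and 0.769 for its contig model. With all 6 libraries none of these passed, and btbd2b and tle2c overlapped between genotypes. The adjusted p of exoc3 ran from 0.0125 to 1 over the 17 alternatives tried, and its log2 fold change from -0.759 to -0.573. sirt6 did not pass in any of its alternatives. With libraries weighted, 43 flanking genes passed (26.9%), against 20.3% of all genes. An unadjusted p under 0.05 was reached by 76 (47.5%), against 38.6% of all genes. The weights came from the spread within each genotype of these same libraries, so these counts are not independent of those without both libraries.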

How the data were processed

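Poly-A selected RNA of 6 libraries was measured. Per the labels' protocols, larvae were genotyped, and RNA of tails was extracted with TRIzol. The tools named in the submitters' processing notes are HISAT2 2.0.5, featureCounts, FastQC and DESeq2, on GRCz11; the sources used here do not give the annotation release, strand setting or handling of multiply mapped reads. The authors deposited FPKM values with gene length and position. Reads per gene were recovered from the FPKM steps (100% of values whole within 1e-06).

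limma 3.58.1 in R 4.3.3 was fitted on log2(FPKM + 0.5) with a variance trend, for the 23855 genes whose mean reached 0.5 FPKM, two-sided, Benjamini-Hochberg adjusted over all, threshold 0.05; the pseudocount understates changes of low genes. Log2 fold changes are mutant minus WT. The fit was tested on simulated data. Labels do not say that libraries came from separate pools, so p-values reflect only how these samples vary, which may be technical. Same-numbered libraries did not deviate together (r of 0.0534, 0.0121 and 0.106), so numbers were not used as pairs.

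Named were sirt6, the 10 nearest tested genes on each side, the 10 of smallest p in each direction, the 6 most abundant, those at the window's edges and up to 6 of the human list; some of these are not reported here; other genes were named after their values were seen, and so were the contig models. The members and lists were chosen with earlier results of these data known. Of 180 coding symbols, 127 matched RefSeq (GRCz12tu), 124 of them on chromosome 2 within 200 coding genes of sirt6. Alternatives changed pseudocount, filter, scaling, variance model, window and libraries, added the replicate number, or used voom on recovered reads. The median-of-ratios scaling factor was 1.008 in every library, so that rescaling could change little. Added after seeing the data were a length adjustment and leaving out unannotated models.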

Additional observations from a re-analysis of the deposited data

How the results depend on the processing

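No flanking gene passed under any alternative except 2. Library weights, taken from the spread in these same data, gave 43 (20.3% of all genes passed there). Leaving out WT library 1 and mutant library 2 together gave 47 (18.6% of all genes passed there). At an unadjusted p under 0.05 the count was 76 with weights (38.6% of all genes there) and 77 without both libraries (35.6% of all genes there). It was 5 of 70 with a mean of at least 5 FPKM (5.47% of all genes there). It was 2 of 72 within 2.5 Mb and 1 of 27 within 1 Mb, against 5.73% of all genes with all 6 libraries. With 1 library left out it was 9 to 43 (3.30% to 18.5% of all genes). Genes whose genotypes do not overlap numbered 120 without both libraries, where 64.2% of all genes did not overlap, and 6 of 70 with at least 5 FPKM (10.2% of all genes there). They numbered 4 of 72 within 2.5 Mb and 1 of 27 within 1 Mb, against 10.6% of all genes with all 6 libraries. With 1 library left out they numbered 19 to 73 (14.9% to 38.9% of all genes). The filter and windows with smaller counts held fewer genes, and their shares were smaller as well. The cause of these changes was not tested. The median log2 fold change ran from -0.0737 to 0.0542 with 1 library left out. sirt6 changed sign with weights (0.137) and without both libraries (0.182), and with 1 library left out it ran from -0.357 to 0.197. Also changing sign were abhd8a (0.311 with weights, 0.0102 with a pseudocount of 1, 0.547 without both libraries), chico (0.0155 with weights, 0.0938 without both), FO834855.1 (0.0979 and 0.167) and pnp5b (0.259 and 0.372). With 1 library left out the log2 fold change ran from -0.186 to 0.687 for plpp2a, -0.358 to 0.409 for chico, -0.284 to 0.588 for gna11b, -0.117 to 0.0172 for creb3l3b, -0.293 to 0.85 for celf5b, -0.613 to 0.109 for FO834855.1, -0.4 to 0.486 for abhd8a and -0.427 to 0.136 for pnp5b. With the replicate number as a block, which no label gives as a pairing, 0 genes passed. The count at an unadjusted p under 0.05 was 15 of 160 there (9.38%), against 5.93% of all genes. Few reads add counting error to genes such as sirt6, with 50 to 131 reads in WT libraries.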

Other observations

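Contigs outside the window also differed in summed reads. Of 13 alternate contigs assigned to chromosome 2, 5 had more reads, scaled to the reads in genes of each library (RPM), in every mutant library than in any WT library. None had fewer, and 8 overlapped. Over single genes, 5.16% were higher and did not overlap, but a sum over several models is not a like measure. The same sums for contigs of other chromosomes are not given here. CHR_ALT_CTG2_1_9 and CHR_ALT_CTG2_2_1, both among the 5, overlap in position. CHR_ALT_CTG2_2_2, at the exoc3 position, had 59.9 ± 7.15 RPM in mutants and 37.0 ± 1.85 RPM in WT (SD, n = 3 each), and without its models at exoc3 and cul1a the reads overlapped between genotypes. CHR_ALT_CTG2_1_9 had 37.6 ± 3.44 in mutants and 22.5 ± 2.63 in WT, and CHR_ALT_CTG2_1_3 had 374.9 ± 8.56 in mutants and 302.1 ± 10.2 in WT (SD, n = 3 each). The contigs were summed after the values of exoc3 had been seen, and the differences were not tested.

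Chromosome 2 as a whole had the highest share of genes at an unadjusted p under 0.05 of the 25 chromosomes (7.12%), and ranked 10 of 25 in the share whose genotypes do not overlap (10.5%). The gene of smallest p on it was saga, a rod arrestin outside the flanking window, with 14.6, 15.4 and 14.4 FPKM in mutants and 5.98, 5.97 and 6.33 FPKM in WT (log2 fold change 1.21, adjusted p = 0.128 in limma). Between saga and sirt6 the table lists 950 coding genes.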
